A study of Mus musculus with 6 samples.

Results

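The 34 genes described here carry glucose into the cell, run glycolysis and the pentose phosphate pathway, handle pyruvate and lactate, and form the hypoxia-sensing HIF system. They were chosen by name, and all 34 were found among the 18368 genes of the authors' count table and passed the filter on low counts. RNA was sequenced from 6 libraries of about 2000 sorted haematopoietic stem cells (HSCs) each, taken from adult mouse bone marrow. The 3 wild-type libraries came from Ramp1+/+ mice and the 3 mutant libraries from mice labelled Ramp1 Mut, with the genotype written as Ramp-/-. Ramp1 encodes an accessory protein of the receptor for the neuropeptide CGRP. No treatment is labelled, and the labels give neither the part of the gene that the allele removes nor the cells in which it is lost. Nor do they name the animal behind each library, and the replicate spread used in the tests may therefore be partly technical.

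Glycolysis splits glucose to pyruvate in the cytosol, and lactate dehydrogenase turns pyruvate into lactate when it does not enter the mitochondrion. Pyruvate dehydrogenase kinases hold pyruvate back from mitochondrial oxidation, and the pentose phosphate pathway branches off at glucose-6-phosphate to give NADPH and ribose. HSCs are known for living in a marrow niche low in oxygen and for relying on glycolysis while quiescent. When oxygen is low, prolyl hydroxylases no longer mark HIF alpha subunits for the VHL ubiquitin ligase, and HIF then raises the transcription of glucose transporters and glycolytic enzymes. Most steps can be run by several isozymes from separate genes, and cell types are known to differ in which of them they express.

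The libraries held between 22796771 and 26734561 reads counted in genes. Levels are FPKM, which scales reads by gene length and library size. Ramp1 stood at 91.4, 88.3 and 91.0 FPKM in wild-type replicates 1 to 3 and at 3.53, 2.65 and 1.35 FPKM in mutant replicates 1 to 3. Errors after ± are SDs over the 3 libraries of a group. HSC markers were present in every library, with Kit at 387 ± 69.7 and 368 ± 101 FPKM in wild type and mutant. Markers of other cells varied. The summed level of 12 neutrophil markers ran from 35.3 to 828 FPKM in wild type and from 183 to 1149 FPKM in mutant libraries, with higher values in the mutant for 11 of 12. That of 10 erythroid markers ran from 85.3 to 136 and from 99.9 to 283 FPKM, with 7 of 10 higher. Endothelial and stromal markers had summed levels of 31.6 to 39.6 FPKM in wild type and 26.2 to 28.9 FPKM in the mutant, lower for 6 of 6 tested, and megakaryocyte and platelet markers of 164 to 216 and 127 to 213 FPKM, lower for 6 of 8. Lymphoid markers had summed levels of 55.9 to 86.1 FPKM in wild type and 44.2 to 65.4 FPKM in the mutant. Of the 5 tested, 3 were higher and 2 lower in the mutant. Nkg7 and Flt3 were the highest of the lymphoid markers, with Nkg7 at means of 53.1 and 39.3 FPKM in wild type and mutant. The T cell marker Cd3e, among the lowest of them, was at 0 in all wild-type libraries and at most 0.196 FPKM in the mutant ones. Macrophage and monocyte markers had summed levels of 18.8 to 25.1 FPKM in wild type and 7.94 to 25.9 FPKM in the mutant. Of the 7 tested, 5 were higher and 2 lower. At an adjusted p of 0.05 edgeR called none of the markers in any of these lists. Markers of 1 cell type can rise and fall together between libraries, so their counts by direction are not independent observations. The part of all these markers in the levels of the 34 genes was not tested. Replicate 1 of both groups carried 6527 and 6137 reads of Y-linked genes, against at most 2 in the other libraries. Xist, from the X chromosome, had 10 and 5 reads in them and 1456 to 3540 in the others. Replicate 1 is thus no technical repeat of the other libraries of its group. With a 2-level covariate for Y-linked reads, above 100 or not, edgeR again called 0 of the 34 genes. In such bulk samples fewer cells of a type and less RNA per cell cannot be told apart.

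HSCs of both genotypes expressed every enzyme step of glycolysis, and none of the 34 genes passed the test between genotypes. Of the 34 genes the highest were enzymes from aldolase to lactate dehydrogenase. Gapdh had a mean of 1138 FPKM, Ldha 818, Pkm 473, Aldoa 447 and Tpi1 395 FPKM. These 5 genes lay in the top 1% of the 14443 genes tested, and 15 of the 34 lay in the top 10%. Values were lower in the mutant for 22 of 34 genes, or 64.7%, and higher for 12, beside 49.9% lower over all genes tested, with a median log2 fold change (mutant minus wild type) of -0.05 against 0.00. The edgeR quasi-likelihood test with Benjamini-Hochberg adjustment called 0 of 34 genes, where it called 0.0208% of all genes tested. None of the 34 had an unadjusted p under 0.05 in that fit, against 3.99% of all genes tested (1.7% lower and 2.28% higher in the mutant). DESeq2, which called 0.284% of its genes, and limma also called 0 of the 34. None of the 34 passed an adjusted p of 0.05 in the authors' deposited table, while 37 of its genes did.

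**Figure D1:**
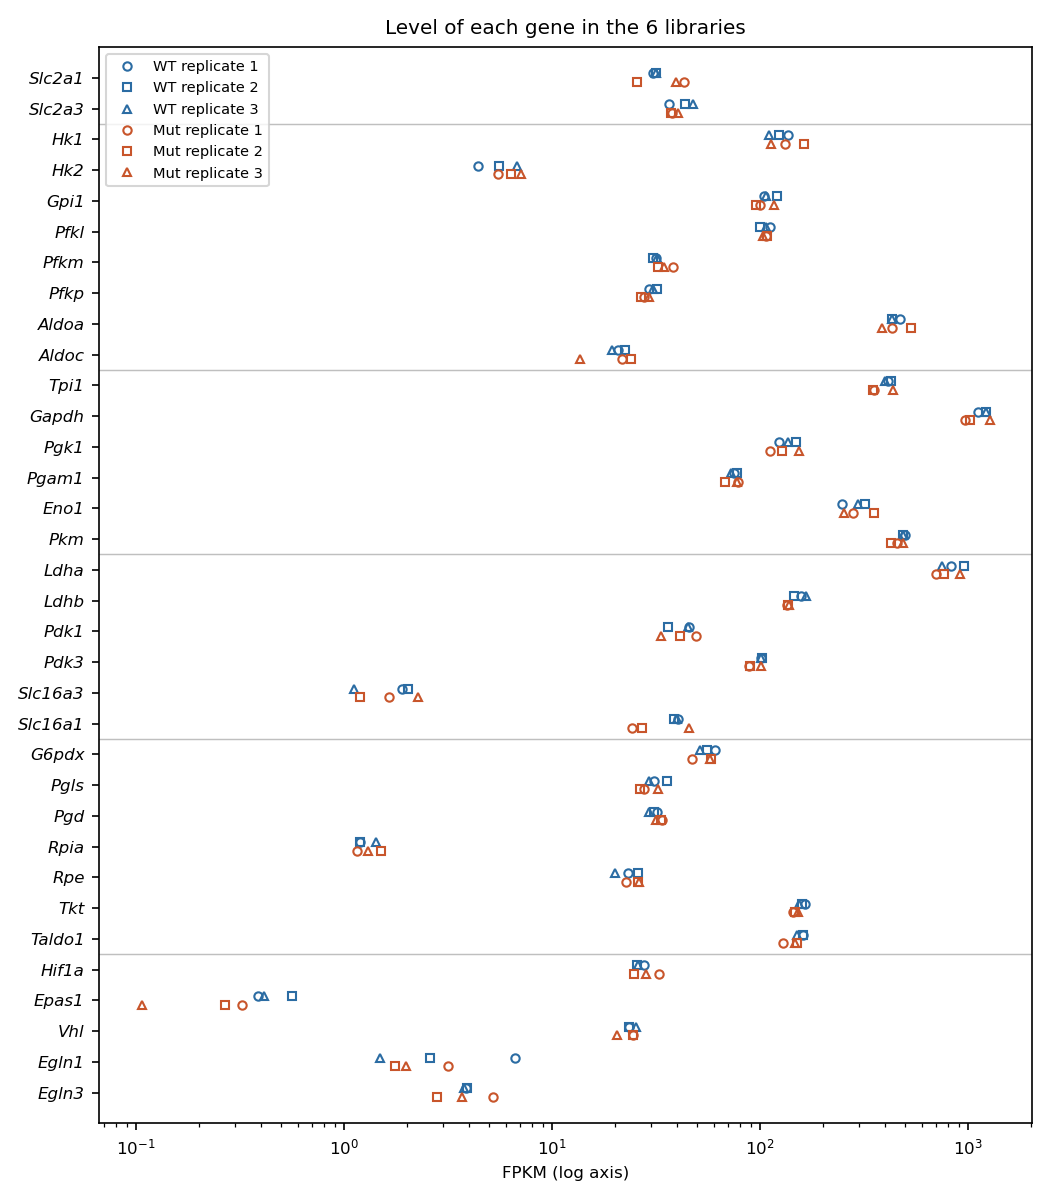
Level of each of the 34 genes in FPKM on a log axis, with 1 symbol per library; blue marks wild type and orange the mutant, and grey lines divide the functional groups. Levels span from 0.342 FPKM for Epas1 to 1138 FPKM for Gapdh, while the ranges of the 2 genotypes overlap for all but 5 genes.

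The absence of calls is bounded by the intervals of the differences. For 26 of 34 genes the 95% interval of the edgeR fold change lay within 1.5-fold in either direction, and for 32 within 2-fold. The exceptions to the wider limit were Epas1 and Egln1, both at low level. The FPKM of the groups did not overlap for 5 of 34 genes, or 14.7%, where 10.3% of all genes tested had no overlap. Pfkm was the 1 gene entirely higher in mutant libraries (5.99% of all genes tested were), and Ldhb, Tkt, Taldo1 and Epas1 were the 4 entirely lower (4.32% of all genes tested were).

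**Figure D2:**
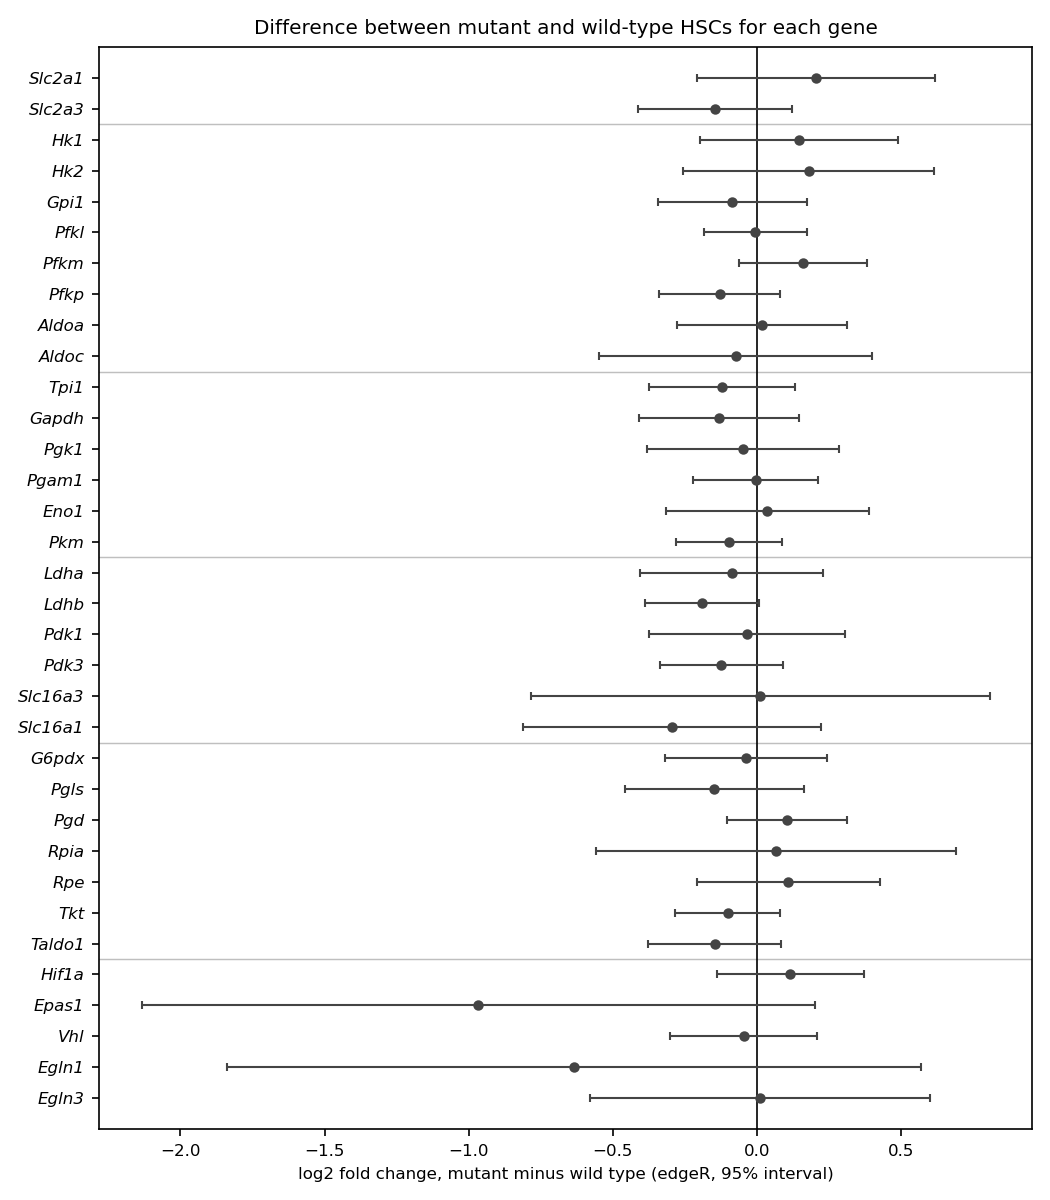
The log2 fold change of each gene, mutant minus wild type, with points for the edgeR estimate and lines for its 95% interval over 3 libraries per group. Every interval includes 0, and the intervals of Epas1 and Egln1 are the widest.

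Glucose enters through facilitative transporters, and HSCs used 2 of them at similar level. Slc2a3, which encodes the high-affinity transporter GLUT3, had 36.5, 43.6 and 47.6 FPKM in wild-type replicates 1 to 3 and 37.6, 37.3 and 40.4 FPKM in mutant replicates 1 to 3. Slc2a1, which encodes GLUT1, had 30.6, 31.5 and 31.6 FPKM in wild type and 43.0, 25.7 and 39.6 FPKM in mutant libraries. The wild-type values of Slc2a1 were nearly equal, while mutant replicates 1 and 3 lay above and mutant replicate 2 below all of them. The log2 fold changes were 0.21 (SE 0.18) for Slc2a1 and -0.15 (SE 0.11) for Slc2a3, each with an edgeR adjusted p of 0.999. Leaving out each library in turn, that of Slc2a1 ran from 0.082 (without mutant replicate 1) to 0.40 (without mutant replicate 2). Slc2a3 made up 57.5 ± 2.91% of the summed FPKM of class I transporters in wild type and 52.0 ± 6.36% in the mutant, a difference of -5.42 percentage points (exact two-sided permutation test, p = 0.3, where 3 against 3 libraries cannot go below 0.1). It led in 5 of 6 libraries, so the order of these neighbours was not fixed; the insulin-responsive Slc2a4 stayed below 0.2 FPKM.

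Hexokinase, which traps glucose by phosphorylation, was mainly Hk1. This isozyme, bound to mitochondria, had 136, 123 and 110 FPKM in wild type and 132, 163 and 113 FPKM in mutant libraries. Mutant replicate 2 was highest, and the other mutant values lay within the wild-type range. Hk2, the isozyme that insulin and HIF induce in other tissues, had 4.41, 5.58 and 6.81 FPKM in wild type and 5.51, 6.33 and 7.13 FPKM in the mutant. Hk1 held 86.3 ± 4.96% of hexokinase FPKM in wild type and 86.3 ± 2.68% in the mutant. The second hexokinase was Hk3, a myeloid isozyme, with 9.47, 11.9 and 18.7 FPKM in wild type and 10.5, 19.6 and 14.9 FPKM in mutant libraries, above Hk2 in every one. It was lowest in replicate 1 of each group, where the neutrophil markers were lowest too; their part in its level was not tested.

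Phosphofructokinase, the committed step of glycolysis, was a mixture led by the liver-type subunit. Pfkl, at 106 ± 5.65 and 106 ± 2.20 FPKM in the respective genotypes, held 63.1 ± 1.55% and 62.7 ± 1.63% of the family. Pfkm, the muscle-type subunit, had 31.6, 30.7 and 31.8 FPKM in wild type and 38.2, 32.3 and 34.6 FPKM in mutant libraries. Pfkp, the platelet-type subunit, had 29.3, 31.8 and 30.7 FPKM in wild type and 27.8, 26.8 and 29.3 FPKM in the mutant. All mutant values of Pfkm lay above the wild-type ones, while for Pfkp mutant replicates 1 and 2 lay below every wild-type value and mutant replicate 3 at their lower edge. The log2 fold changes were 0.16 (SE 0.10) and -0.13 (SE 0.09), and neither passed the edgeR test. The share of Pfkm was 18.7 ± 0.286% in wild type and 20.7 ± 1.40% in the mutant, and that of Pfkp 18.2 ± 1.29% and 16.6 ± 0.814%. Pfkm and Pfkp overlap the counted genes Senp1 and Pitrm1 on the opposite strand, and without a stated strand setting reads in the overlap cannot be told apart. Of the bifunctional PFKFB enzymes, which set the level of the activator of phosphofructokinase, Pfkfb4 and Pfkfb3 shared the lead at means of 5.26 and 4.85 FPKM. Pfkfb4 held 37.4 ± 6.19% of the family in wild type and 42.6 ± 7.52% in the mutant (exact permutation p = 0.5), and it led in 4 of 6 libraries.

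Gpi1, which interconverts glucose and fructose phosphates, was at 110 ± 8.52 and 104 ± 10.9 FPKM in wild type and mutant. Aldoa, the aldolase of most proliferating and muscle cells, had 472, 429 and 433 FPKM in wild type and 430, 533 and 384 FPKM in mutant libraries. Mutant replicates 2 and 3 were the highest and the lowest of all 6. Aldoc, the brain-type aldolase, was about a factor of 22.1 lower, at 20.8 ± 1.54 and 19.8 ± 5.47 FPKM. Aldoa held 95.3 ± 0.641% of aldolase FPKM in wild type and 95.8 ± 0.634% in the mutant.

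**Figure D3:**
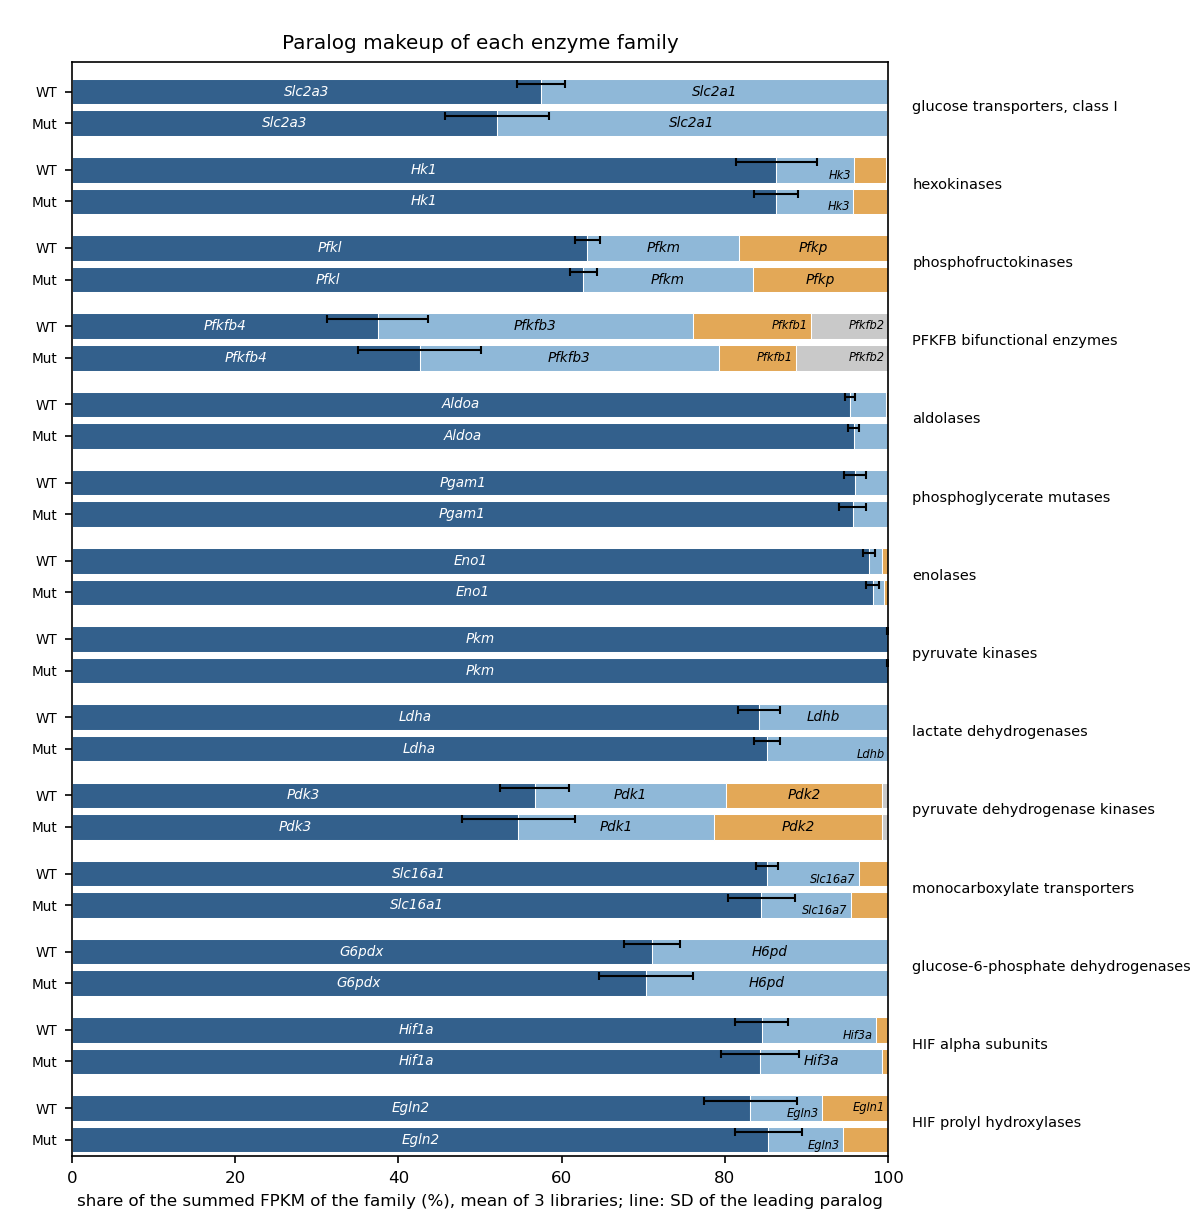
Share of each paralog in the summed FPKM of its family, as the mean of 3 wild-type and 3 mutant libraries, with a line for the SD of the leading paralog. The transketolases, all Tkt, are not drawn, and the enolases leave out Eno1b, a retrotransposed copy of Eno1. The leader is the same in both genotypes for every family drawn except the PFKFB enzymes, where Pfkfb4 and Pfkfb3 are close together.

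The lower part of the route, from triose phosphates to pyruvate, ran on 1 dominant gene per step. Gapdh (ENSMUSG00000057666, mm10 chromosome 6, 125161853 to 125166467), the dehydrogenase that yields NADH, had 1121, 1227 and 1224 FPKM in wild type and 963, 1023 and 1270 FPKM in mutant libraries. Mutant replicates 1 and 2 lay below and mutant replicate 3 above every wild-type value, and the log2 fold change was -0.13 (SE 0.12). The same order held for Tpi1, the triose isomerase, with 412, 424 and 398 FPKM in wild type and 352, 348 and 434 FPKM in the mutant. Pgk1, the kinase that makes the first ATP, had 136 ± 13.1 and 132 ± 21.6 FPKM, and Pgam1, the mutase that follows it, 74.8 ± 2.37 and 74.6 ± 5.83 FPKM. Of the enzyme steps from hexokinase to lactate dehydrogenase, with the members of a step summed, that of Pgam1 was the lowest. Pkm, pyruvate kinase of muscle and most other tissues, had 496, 486 and 485 FPKM in wild type and 453, 427 and 489 FPKM in mutant libraries. Mutant replicates 1 and 2 were below the narrow wild-type range, while Pklr, the liver and red cell gene, reached at most 0.541 FPKM. Counts are per gene, so the M1 and M2 splice forms of Pkm were not separated here.

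Enolase was Eno1 in 97.7 ± 0.693% of the family in wild type and 98.1 ± 0.807% in the mutant, over Eno3 and Eno2 at means of 4.28 and 1.75 FPKM. Not counted in this family is Eno1b, a retrotransposed copy of Eno1, at 52.5 ± 21.1 and 39.3 ± 41.3 FPKM in wild type and mutant. Eno1 had 249, 321 and 297 FPKM in wild type and 281, 353 and 254 FPKM in mutant libraries. The reads counted for Eno1b changed from library to library. Eno1b held 3423, 1831 and 1595 reads in wild type and 1377, 33 and 3612 reads in mutant libraries, between 0.172% and 22.1% of the reads of both genes. The 2 libraries with the most Eno1b reads had the lowest Eno1, and Eno1b was nearly empty in mutant replicate 2, where Eno1 was highest. Eno1 varied by a coefficient of variation (CV) of 13.7% over the 6 libraries in RPM (reads scaled to the same total of counted reads in each library, as CPM), and the sum of both genes by 5.85%. The sum was 678 ± 42.6 RPM in wild type and 669 ± 44.9 RPM in the mutant, so the spread of Eno1 printed above is larger than that of the combined reads. Eno1b is outside the rule for named genes and was chosen after its values were seen. Whether reads of 1 of these genes were assigned to the other was not tested. Listed copies of Pgam1, Pgk1 and Ldha held fewer reads, with Pgam1-ps2 the highest of these at 1.97% of the reads of Pgam1 and Pgam1-ps2.

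**Figure D4:**
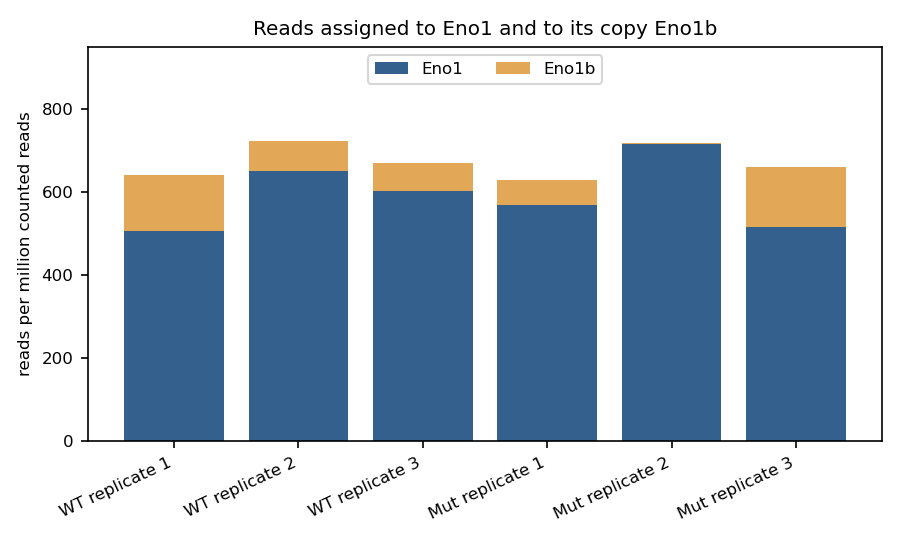
RPM assigned to Eno1 (blue) and stacked on it to its retrotransposed copy Eno1b (orange), for each library. The Eno1b part runs from 1.23 in mutant replicate 2 to 146 in mutant replicate 3, while the stacked height stays between 629 and 724.

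Of the lactate dehydrogenase subunits Ldha was far above Ldhb. Ldha (ENSMUSG00000063229, chromosome 7, 46841475 to 46855627), the subunit that favours lactate formation, had 832, 952 and 746 FPKM in wild type and 700, 765 and 913 FPKM in mutant libraries. Ldhb (ENSMUSG00000030246, chromosome 6, 142490249 to 142507957), the subunit of oxidative tissues, had 157, 145 and 167 FPKM in wild type and 135, 137 and 138 FPKM in the mutant. All mutant values of Ldhb were below the wild-type ones and close to each other, while those of Ldha overlapped. Of the 34 genes Ldhb came nearest to an unadjusted p of 0.05, with a log2 fold change of -0.19 (SE 0.09), a 95% interval from -0.39 to 0.01 and an edgeR adjusted p of 0.999. Ldha held 84.2 ± 2.55% of the lactate dehydrogenase FPKM in wild type and 85.2 ± 1.54% in the mutant, a difference of 0.972 percentage points (exact permutation p = 0.6). Testis-specific Ldhc was at most 0.144 FPKM.

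Of the pyruvate dehydrogenase kinases Pdk3 led, at 2.34 times the level of Pdk1. Pdk3 had 102, 102 and 101 FPKM in wild type and 88.5, 89.7 and 101 FPKM in mutant libraries, a log2 fold change of -0.12 (SE 0.09). Pdk1 had 45.8, 36.0 and 44.9 FPKM in wild type and 49.1, 41.0 and 33.5 FPKM in the mutant. Mutant replicates 1 and 2 of Pdk3 lay below the narrow wild-type range, while for Pdk1 mutant replicate 1 lay above and mutant replicate 3 below every wild-type value. Pdk2, at means of 34.8 ± 7.34 and 35.5 ± 8.89 FPKM, was next to Pdk1 in level, and Pdk4, which fasting induces elsewhere, was low at a mean of 1.29 FPKM. Pdk3 held 56.7 ± 4.23% of the family in wild type and 54.7 ± 6.88% in the mutant.

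Lactate leaves or enters by monocarboxylate transporters, and the low-affinity exporter of highly glycolytic cells was nearly absent. Slc16a3, which encodes this exporter (MCT4), had 1.89, 2.04 and 1.12 FPKM in wild type and 1.65, 1.19 and 2.26 FPKM in mutant libraries. Slc16a1, which encodes MCT1, had 40.5, 38.4 and 40.1 FPKM in wild type and 24.1, 27.2 and 45.4 FPKM in the mutant. Mutant replicates 1 and 2 of Slc16a1 were far below wild type and mutant replicate 3 was above it, and the log2 fold change of -0.30 (SE 0.22) did not pass. Leaving out each library in turn, it ran from -0.64 (without mutant replicate 3) to -0.11. Slc16a1 held 85.1 ± 1.35% and 84.5 ± 4.10% of the 3 transporters. The third, Slc16a7 (MCT2), had 5.13, 5.41 and 5.16 FPKM in wild type and 4.15, 4.02 and 3.47 FPKM in mutant libraries, without overlap (log2 fold change -0.43, SE 0.16; edgeR adjusted p = 0.999). Bsg, the chaperone that brings these transporters to the membrane, was at 209 ± 8.21 and 221 ± 17.1 FPKM.

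The pentose phosphate genes were led by Tkt and Taldo1, the enzymes of the non-oxidative branch that link ribose back to glycolysis. Tkt, transketolase, had 164, 159 and 154 FPKM in wild type and 144, 148 and 153 FPKM in mutant libraries. Taldo1, transaldolase, had 161, 161 and 151 FPKM in wild type and 130, 150 and 147 FPKM in the mutant. Both had mutant values wholly below wild type, by a narrow margin between the nearest libraries, with log2 fold changes of -0.10 (SE 0.08) and -0.15 (SE 0.10) that did not pass. Tkt was the only transketolase seen, since Tktl1 and Tktl2 are listed at 0 in all libraries. The oxidative enzymes were lower: G6pdx, which commits glucose to the pathway, had 55.9 ± 4.49 and 54.3 ± 6.14 FPKM, and Pgd, which makes the second NADPH, 30.6 ± 1.47 and 32.9 ± 1.08 FPKM. Pgls, which hydrolyses the lactone between them, had 31.9 ± 3.46 and 28.8 ± 3.06 FPKM. G6pdx held 71.1 ± 3.42% of the summed FPKM with H6pd, its counterpart in the endoplasmic reticulum, in wild type and 70.3 ± 5.79% in the mutant. The other non-oxidative genes were the lowest of the 7. Rpe, the epimerase, had 23.0 ± 2.89 and 24.8 ± 1.88 FPKM, and Rpia, the isomerase that forms ribose-5-phosphate, was at 1.27 ± 0.133 and 1.32 ± 0.177 FPKM, with 96 to 147 reads per library. Among these genes 3 had higher and 4 lower values in the mutant, with a median log2 fold change of -0.04. G6pdx and Rpe overlap the counted genes Ikbkg and Kansl1l on the opposite strand.

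The HIF system was present with Hif1a as its main alpha subunit. Hif1a had 27.7, 25.5 and 26.0 FPKM in wild type and 32.7, 24.9 and 28.2 FPKM in mutant libraries. Mutant replicate 1 was highest and mutant replicate 2 lowest, and the log2 fold change was 0.12 (SE 0.11). Epas1 (ENSMUSG00000024140, chromosome 17, 86753907 to 86833410), which encodes the HIF-2 alpha subunit, was near its detection limit with 52, 74 and 51 reads in wild type and 39, 38 and 14 reads in the mutant. All mutant counts of Epas1 were below the wild-type ones, and its log2 fold change of -0.97 (SE 0.50) had a 95% interval from -2.14 to 0.20 and did not pass. Hif1a held 84.5 ± 3.26% of the alpha subunit FPKM in wild type and 84.3 ± 4.76% in the mutant, and Hif3a, from which inhibitory forms are known, was the second at a mean of 4.75 FPKM.

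On the side that degrades HIF, Vhl, the substrate receptor of the ubiquitin ligase, had 24.0 ± 1.07 and 23.2 ± 2.25 FPKM. The main prolyl hydroxylase transcript was Egln2, at 36.4 ± 3.38 and 35.8 ± 2.04 FPKM, which made up 83.1 ± 5.73% and 85.3 ± 4.08% of the family. Egln1, the main oxygen sensor of most tissues, had 6.64, 2.58 and 1.49 FPKM in wild type and 3.16, 1.77 and 1.98 FPKM in mutant libraries. It was highest in replicate 1 of both groups, the libraries with Y-linked reads, and wild-type replicate 1 stood far above the rest. The log2 fold change of Egln1 was -0.64 (SE 0.52), and without wild-type replicate 1 it was 0.16. Egln3, itself a HIF target, had 3.87, 3.91 and 3.76 FPKM in wild type and 5.17, 2.80 and 3.68 FPKM in the mutant, where the spread was wider.

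ACGTG, a form of the core of the HIF response element, was looked for on both strands in the 250 bases before each RefSeq gene start (build GRCm38.p6), to show where along the route it occurs. Other forms of this core were not counted. Promoters were listed for 32 of the 34 genes, and 14 genes had the motif: Slc2a1, Hk2, Pfkm, Aldoa, Pgk1, Pgam1, Pkm, Ldha, Pdk3, Slc16a1, Slc16a3, Hif1a, Egln1 and Egln3. By promoter this was 16 of 45, or 35.6%, beside 16.6% of all 32851 promoters and 21.4% of the promoters of genes tested. The palindrome CACGTG, an E-box that holds ACGTG on both strands, was in 4 promoters of the 34 genes, or 8.89%, beside 6.02% of all promoters and 8.19% of the promoters of genes tested. The following stretches, 5′ to 3′ on the strand of the gene with the motif or its complement CACGT in capitals, show 1 site from each of 6 genes in the order of the route.
Slc2a1: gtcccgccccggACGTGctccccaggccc
Aldoa: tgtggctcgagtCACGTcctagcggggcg
Pgk1: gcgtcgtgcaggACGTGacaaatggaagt
Pgam1: cgctccttgcttACGTGcgctccgtgact
Pkm: ctccgatccggtCACGTccgcgccgcagc
Ldha: ggcccagcctacACGTGggttcccgcacg
The Ldha site is at the same time the palindrome CACGTG, since the base before the capitals is c. The sites lie at chr4:119108697-119108725 (plus strand), chr7:126799364-126799392 (minus strand), chrX:106186938-106186966, chr19:41911745-41911773, chr9:59657140-59657168 and chr7:46845745-46845773 (all plus strand). The 14 genes with the motif had a median log2 fold change of 0.00, and the 18 without it -0.06. A match of these letters is a description and no evidence of binding.

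Other genes of the same pathways, 79 in all, gave 0 calls among the 66 tested, with 43 higher and 23 lower values and a median log2 fold change of 0.03. The FPKM of the groups did not overlap for 8 of the 66 tested, where 10.3% of all genes tested had no overlap. An unadjusted edgeR p under 0.05 was found for 3 of the 66, or 4.55%, near the 3.99% of all genes. The first was Slc16a7, described above. Bnip3, a HIF target of mitophagy, had 38.6, 42.4 and 38.8 FPKM in wild type and 51.0, 46.7 and 45.6 FPKM in the mutant, wholly above it (log2 fold change 0.26, SE 0.10). Car12, a membrane carbonic anhydrase that HIF induces, had 1.61, 1.48 and 2.15 FPKM in wild type and 1.04, 0.362 and 0.716 FPKM in mutant libraries (log2 fold change -1.31, SE 0.41). The 20 tested HIF targets outside the 34 genes were split, with 13 higher and 7 lower. In gluconeogenesis, Fbp1, which reverses the phosphofructokinase step, had 89.7, 68.0 and 86.8 FPKM in wild type and 63.9, 17.3 and 54.0 FPKM in the mutant, without overlap (log2 fold change -0.86, SE 0.40). G6pc3, a glucose-6-phosphatase subunit, had 57.8 ± 6.94 and 46.5 ± 5.90 FPKM. None of these 5 genes passed, with an edgeR adjusted p of 0.999 for each. Pck1, G6pc and Fbp2 are listed at 0 in all libraries.

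The mutant libraries were spread more widely than the wild-type ones. The median CV of the 34 genes was 6.23% in wild type and 12.8% in the mutant, beside 13.5% and 16.3% over all genes tested. Among genes at 10 FPKM or more it was 5.19% and 10.6% for those of the 34, and 8.57% and 10.6% over all tested. Above this cut the medians of the sets thus lay apart in wild type, not in the mutant. The cut does not match the sets in level, since 15 of the 34 genes lay in the top 10% of all genes tested. This difference in spread was not tested. The CV was larger in the mutant for 25 of 34 genes, or 73.5%, beside 58.4% of all genes tested. Mutant replicate 3 was the highest mutant library for 16 of the 34 genes, among them Gapdh, Tpi1, Pgk1, Pkm, Ldha, Gpi1 and Slc16a1. Mutant replicate 2 was highest for Hk1, Aldoa, Aldoc, Eno1 and 4 others, and mutant replicate 1 for Slc2a1, Hif1a, Egln1, Egln3 and 6 others. The 6 lower glycolysis genes lay at a median of -0.14, -0.12 and 0.11 in mutant replicates 1 to 3 and of -0.02, 0.14 and 0.02 in wild type, as log2 deviations from each gene's mean over the 6 libraries. The 18 G2/M cell cycle genes had medians of -0.23, -0.61 and 0.41 in the mutant and 0.02, 0.25 and 0.18 in wild type, with summed levels of 334 to 648 and 508 to 590 FPKM and log2 fold changes below 0 for 18 of 18. Both lists were thus below average in mutant replicates 1 and 2 and above it in mutant replicate 3. Immediate early genes had -0.48, 0.52 and 0.73 in mutant and -0.70, -0.10 and -0.01 in wild-type libraries. No gene of these lists was called by edgeR. The part of these lists in the levels of the glycolytic genes was not tested.

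**Figure D5:**
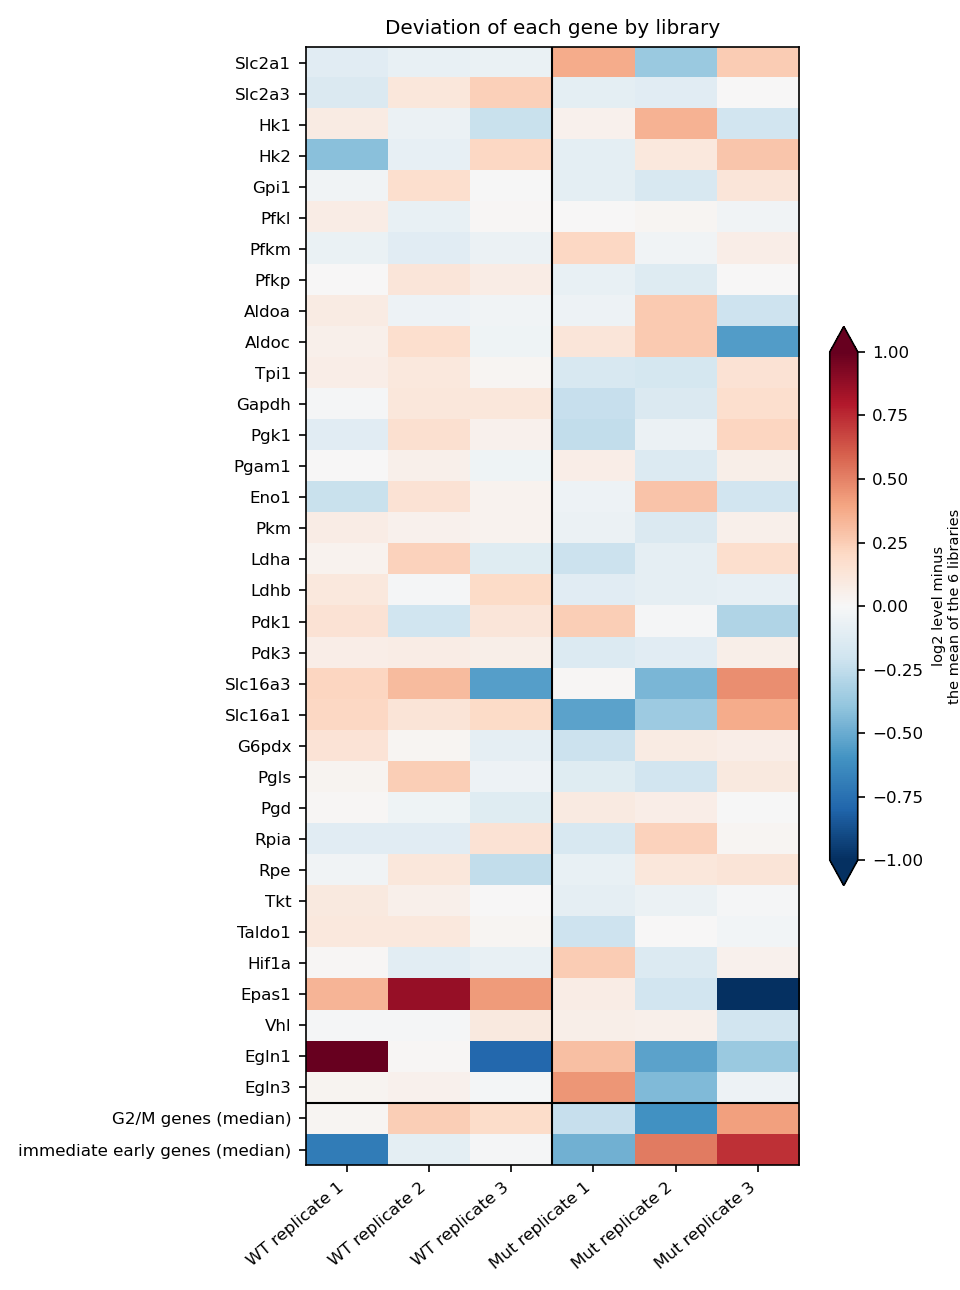
Log2 level of each gene in each library minus its mean over the 6 libraries, blue for below and red for above, with the medians of the G2/M and immediate early lists in the 2 lowest rows. Mutant replicates 1 and 2 are mostly blue and mutant replicate 3 mostly red from Tpi1 to Ldha, except for Eno1 in mutant replicates 2 and 3 and Pgam1 in mutant replicate 1.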

How the data were processed

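The study sequenced RNA of sorted mouse HSCs in 3 Ramp1+/+ and 3 Ramp1 mutant libraries, grouped by their titles. Per the submitters' processing notes, the genome build was mm10 and the tools included STAR, CASAVA, HTSeq 0.6.1 and DESeq2. The annotation release and the strand setting are not given in the sources used here. The authors deposited raw read counts per gene, FPKM values, their log2 fold changes and p-values in 1 table, and FPKM for more genes in another, used here for paralogs outside the first. Another 6 columns of normalized values were not used.

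Genes were filtered with filterByExpr, which kept 14443, scaled by TMM and tested on the deposited counts by the quasi-likelihood F test of edgeR 4.0.16 (R 4.3.3). The threshold was a Benjamini-Hochberg adjusted p of 0.05, two-sided. Standard errors were taken as the size of the log2 fold change over the root of its F statistic. Shares of paralogs in the FPKM of 15 families were compared for the leading paralog by an exact two-sided permutation test, whose smallest p with 3 against 3 is 0.1; after adjustment over the families all were 1.00. Alternatives were DESeq2 1.42.0, limma 3.58.1 on log2(FPKM + 0.1) and log2(FPKM + 1), other scaling, no filter, a 2-level covariate for Y-linked reads (above 100 or not), the replicate number as a block, and each library left out. No 2 libraries of a group agreed within sampling noise. Overlapping genes came from GENCODE M21 of the same build.

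The 34 genes and the lists were chosen with earlier results of these data known. Genes named are the 34, Ramp1, all paralogs of the families, other pathway genes with an unadjusted p under 0.05 (or the 2 highest of a list), and up to 3 markers of a list. Some paralogs and markers covered by this rule are not reported here.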

Additional observations from a re-analysis of the deposited data

How the results depend on the processing

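None of the 34 genes was called in any of 13 alternatives, and the lowest adjusted p of a gene in them was 0.357. The count of all genes called was 3, and 44 by DESeq2, 6 by limma on log2(FPKM + 0.1) and 2 to 6 with each library left out, the highest without mutant replicate 2. Of 442 log2 fold changes under alternatives 410 kept their sign. The other 32 belong to 16 genes and, apart from Egln3, come from leaving out 1 library. Leaving out each library in turn gave the ranges -0.013 to 0.25 for Hk1, -0.19 to 0.0019 for Gpi1, -0.026 to 0.024 for Pfkl, -0.13 to 0.11 for Aldoa, -0.25 to 0.13 for Aldoc, -0.20 to 0.069 for Pgk1, -0.047 to 0.055 for Pgam1, -0.12 to 0.14 for Eno1, -0.21 to 0.031 for Ldha, -0.16 to 0.085 for Pdk1, -0.26 to 0.21 for Slc16a3, -0.10 to 0.070 for G6pdx, -0.043 to 0.17 for Rpia, -0.091 to 0.021 for Vhl, -1.01 to 0.16 for Egln1 and -0.23 to 0.19 for Egln3. The other 18 kept their sign in all 13 alternatives, with ranges as wide as -0.64 to -0.11 for Slc16a1, -1.25 to -0.63 for Epas1, 0.082 to 0.40 for Slc2a1 and -0.27 to -0.036 for Gapdh. Egln3, at 0.01, was -0.030 and -0.018 by limma with the pseudocounts 0.1 and 1, -0.029 with the replicate block and -0.022 with the covariate for Y-linked reads. Leaving out each library, the median log2 fold change ranged from -0.11 to -0.0097 for all 34 genes, from -0.038 to 0.13 for glucose transporters, from -0.028 to 0.091 for upper glycolysis, from -0.18 to -0.019 for lower glycolysis, from -0.21 to -0.083 for pyruvate and lactate, from -0.10 to 0.070 for pentose phosphate and from -0.23 to 0.021 for HIF and its regulators. Differences in the share of a leading paralog moved by less than the spread between libraries under every alternative run. The replicate numbers were not taken as pairs: deviations from the group means correlated by 0.138, 0.00181 and -0.0940 in same-numbered libraries. The replicate block called 2 genes in all and none of the 34. Depth limits Epas1, with 14 to 74 reads, and Rpia and Slc16a3, with at most 243.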
